A study of Homo sapiens with 62 samples.

Results

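The replication-dependent histone genes of the human clusters were taken as every gene whose symbol starts with HIST1H, HIST2H or HIST3H. They were 89 of the 58735 genes in the GRCh38 tables and 88 of the 48162 genes in the GRCh37 tables of 1 line, A2780. Of the 89 genes, 66 lie on 6p (all HIST1), 19 on 1q (HIST2 and HIST3) and 4 elsewhere. The genes annotated as coding number 69, with 55 on 6p and 14 on 1q, and the other 20 are pseudogenes. In at least 1 comparison 51 genes passed the filter on low counts, 10 of them on 1q, and 15 genes passed it in all 10 comparisons of groups. Another 38 genes, 20 of them coding, passed it in none, with at most 22 counts in any library, and 4 genes had no count in any of the 62 libraries.

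These genes supply the linker histone H1 and the core histones H2A, H2B, H3 and H4 that package newly copied DNA, and their transcription rises when cells enter S phase. Most of their mRNAs end in a short stem-loop bound by the protein SLBP and carry no poly-A tail. A smaller pool of polyadenylated histone mRNA, often read through past the stem-loop, is known from differentiated and cancer cells. Libraries made with poly-T beads therefore catch mainly this pool and do not measure total histone mRNA. In bulk libraries, more cells of a kind and more RNA per cell cannot be told apart.

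The 62 libraries came from 5 human lines in which ReDACT, a set of genome-engineering methods, had been used to remove 1 extra chromosome arm, and each loss line is a clone grown from a single cell. Cells were collected 24 h after plating. The A2058 melanoma line, which carries gains of 1q, 7p and 8q, gave 4 wild-type (WT) libraries, 4 from 2 1q-loss clones, 6 from 3 7p-loss clones and 4 from 2 8q-loss clones, made by the CO version of the method. The HCT116 colorectal line, with an 8q gain, gave 2 WT libraries and 4 from 2 8q-loss clones, also made by CO. The AGS gastric line, with a 1q gain, gave 1 WT library, 2 from TK+ clones that hold the selection cassette and keep the gain, and 5 from 1q-loss clones, of which clones 1, 4, 6 and 7 were made by the NS version and clone 11 by CO. The A2780 ovarian line, with a 1q gain, gave 2 WT libraries, 2 TK+ libraries and 6 from 1q-loss clones 2, 5 and 6, also made by NS. The MCF10A breast epithelial line gave 2 WT libraries and 8 from 4 1q-loss clones, of which clones 1, 2 and 3 were made by the TR version and clone 4 by CO, and the same numbers from cells that also express the oncogene hRASV12 (hRas). Nothing in the labels outside MCF10A says that replicates were separate cultures, so p-values may measure only technical spread.

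Libraries held 15042068 to 30984036 counts, of which 842 to 6678 fell on histone cluster genes, so the summed genes made up 54.3 to 316 CPM (counts scaled to 1000000 per library). At a floor of 3 counts, a gene at 0 could still have a level of up to 0.0968 to 0.199 CPM, depending on the library. In HCT116 a 0 says less than this floor. HIST1H2BN, for example, had 19, 0, 54 and 16 counts in the 8q-loss libraries. HCT116 libraries had a count for 27 to 44 histone cluster genes, against 42 to 65 in the other lines, which limits all HCT116 values. Several libraries stood apart from their labels. The 5 melanoma markers summed to 42.9 to 132 CPM in the A2058 1q-loss libraries against 1664 to 2704 CPM in the WT libraries, while the list of basal breast epithelium markers summed to 50.99, 98.55, 228 and 261 CPM in the former and to 0.833 to 2.77 CPM in the latter. Of that list, KRT17 reached 250 CPM and TP63 15.4 CPM in A2058, while KRT5 and KRT14 were at most at 0.333 and 1.37 CPM in any A2058 library. PECAM1, an endothelial marker, was at 7.05 to 17.4 CPM against 0.170 to 0.357 CPM, and VWF, another endothelial marker, at 0 to 0.227 against 0.139 to 0.596 CPM. The blood cell markers PTPRC and CD3E were at or near 0 in both groups. In MCF10A hRas 1q-loss clone 2, the basal marker TP63 was at 0.511 and 0.636 CPM against 57.7 and 60.6 CPM in hRas WT. The defining ovarian markers were near 0 in A2780, with a summed level of at most 2.09 CPM. In that line the list of gastric markers, which holds KRT8 and KRT18, summed to 174.9 and 170.5 CPM in WT. It was at 5.608 and 8.723 CPM in TK+ and 7.315 to 88.64 CPM in the 1q-loss libraries. The part of these differences in the results was not tested.

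Transcript ends are shown first, because poly-A selection acts on the ends of mRNAs. Whether the annotated ends relate to the counts was not tested, and 21 of the 49 coding genes tested in any comparison are annotated as coding sequence only. Of the 69 coding genes, 34 are annotated as coding sequence only, and 35 have bases after the stop codon in at least 1 GENCODE transcript. A stem of 6 bases starting with GG around a loop of 4 bases was found within those bases in 30 of the 35 genes, and in 21 genes the annotation runs at least 100 bases past the loop. A poly-A signal (AATAAA or ATTAAA) lies in the last 60 bases of at least 1 transcript in 23 genes. The stem is in capitals and the loop in lower case in the 5 forms found, each with the number of genes that carry it.
Form of 17 genes, among them HIST2H2BE, HIST3H2A and HIST1H2AC: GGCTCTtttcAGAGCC
Form of 5 genes, among them HIST1H2BC and HIST1H2BD: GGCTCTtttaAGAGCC
Form of 4 genes, among them HIST1H4H: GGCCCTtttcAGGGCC
Form of 3 genes, among them HIST1H4I: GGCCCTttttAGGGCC
Form of 1 gene, HIST1H3E: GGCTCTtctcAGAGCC
In HIST2H2BE, an H2B gene on 1q, the stem-loop lies 56 bases after the stop codon at chr1:149886188-149886203 (GRCh38, minus strand), and the transcript is annotated for another 1729 bases, with a poly-A signal near its end. In HIST1H2AC, an H2A gene on 6p, it lies 43 bases after the stop codon at chr6:26124669-26124684 (plus strand), with 1128 bases beyond it. HIST1H2BD, an H2B gene, has a spliced transcript without the stem-loop, with a poly-A signal near its end. HIST1H2BK, HIST1H1C and HIST2H2AC are annotated as coding sequence only in the GRCh38 tables, so reads past their stop codons would not have been counted for them there. In the GRCh37 tables of A2780 they are longer, at 820 bases against 381 for HIST1H2BK, 732 against 642 for HIST1H1C and 437 against 390 for HIST2H2AC.

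Promoters are shown because many H2A and H2B genes lie in divergent pairs that share one. Divergent pairs, with gene starts of the GRCh38 tables at most 700 bases apart, had both genes tested in 8 of 12. Of the 12 pairs, 10 lie on 6p and 2 on 1q. All are pairs of an H2A and an H2B gene except HIST1H3J with HIST1H2BO, and HIST1H2BO is also paired with HIST1H2AM. HIST2H2BE and HIST2H2AC start 322 bases apart, HIST3H2A and HIST3H2BB 233, HIST1H2BC and HIST1H2AC 218, HIST1H2BJ and HIST1H2AG 291, and HIST1H2BK and HIST1H2AH 330. RefSeq promoters (GRCh38.p14) were matched for 61 of the 69 coding genes. The distances above use the gene starts of the tables, which can differ from transcription starts. The RefSeq start lay within 50 bases of the table start in 47 of the 61 genes. The 250 bases before the RefSeq start are given for 5 genes that the results turn on, with capitals for the octamer ATTTGCAT, CCAAT and TATAAA, searched on both strands.
HIST2H2BE, chr1:149886683-149886932, minus strand, an H2B gene on 1q: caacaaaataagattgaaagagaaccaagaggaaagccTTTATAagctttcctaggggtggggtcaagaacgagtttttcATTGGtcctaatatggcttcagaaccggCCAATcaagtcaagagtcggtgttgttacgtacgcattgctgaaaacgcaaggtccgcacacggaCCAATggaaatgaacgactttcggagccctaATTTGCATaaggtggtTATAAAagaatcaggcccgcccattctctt
HIST1H2AC, chr6:26123922-26124171, plus strand, an H2A gene on 6p: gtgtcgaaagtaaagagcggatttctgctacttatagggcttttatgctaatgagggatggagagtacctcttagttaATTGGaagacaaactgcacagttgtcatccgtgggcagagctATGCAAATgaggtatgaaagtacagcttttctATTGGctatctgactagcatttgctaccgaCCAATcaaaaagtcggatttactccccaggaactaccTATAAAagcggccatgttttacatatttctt
HIST1H2BK, chr6:27146856-27147105, minus strand, an H2B gene on 6p: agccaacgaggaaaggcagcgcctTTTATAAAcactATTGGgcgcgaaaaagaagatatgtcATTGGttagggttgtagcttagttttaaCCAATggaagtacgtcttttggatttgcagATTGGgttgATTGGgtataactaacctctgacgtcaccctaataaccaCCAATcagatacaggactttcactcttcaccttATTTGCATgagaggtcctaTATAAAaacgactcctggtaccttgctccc
HIST1H1C, chr6:26056471-26056720, minus strand, a linker histone gene on 6p: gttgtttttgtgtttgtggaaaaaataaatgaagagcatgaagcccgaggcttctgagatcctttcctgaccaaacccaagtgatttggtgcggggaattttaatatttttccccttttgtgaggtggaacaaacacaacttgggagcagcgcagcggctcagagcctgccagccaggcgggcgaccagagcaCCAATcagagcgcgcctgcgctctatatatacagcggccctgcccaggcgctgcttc
HIST3H2A, chr1:228457874-228458123, minus strand, an H2A gene on 1q: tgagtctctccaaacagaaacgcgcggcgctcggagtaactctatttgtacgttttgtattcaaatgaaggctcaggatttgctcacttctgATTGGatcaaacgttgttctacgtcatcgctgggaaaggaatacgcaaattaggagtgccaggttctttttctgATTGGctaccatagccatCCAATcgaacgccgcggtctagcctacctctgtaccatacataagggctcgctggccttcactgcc
ATTTGCAT, the octamer that the factor OCT1 is known to bind in H2B promoters, was in 22 of the 61 windows of 250 bases before to 50 after the start (36.1%) and in 1.77% of all 35116 RefSeq promoters of that length. It was in 11 of 16 H2A and 11 of 15 H2B windows and in no H1, H3 or H4 window, and windows of a divergent pair overlap and share it. The first base of the octamer lies at -46 in HIST2H2BE, -49 in HIST1H2BK and -130 in HIST1H2AC. CCAAT was in 52 of the 61 windows against 34.6% of all promoters, and TATAAA in 41 of the 61 against 11.5%. Of the 14 coding genes on 1q, 4 held the octamer, as did 18 of 47 on 6p.

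Levels between genes were compared per kilobase of table length in the WT groups. HIST1H2BK, an H2B gene, was first in every line, with a mean of 89.3 CPM per kb in A2058 (SD 23.2, n = 4) and 93.0 in HCT116 (SD 0.450, n = 2). It was at 28.1 CPM per kb in the single AGS WT library, 60.5 in A2780 and 24.8 in MCF10A. HIST1H1C, a linker histone gene, followed in A2058 with 15.1 CPM per kb (SD 3.39, n = 4), and HIST3H2A with 14.5 (SD 3.69) and HIST1H2AC with 14.1 (SD 6.09) differed from it by less than their spread. In HCT116 the order was HIST1H2BK, HIST1H1C at 48.1 (SD 8.50, n = 2) and HIST3H2A at 36.0 (SD 1.86). HIST1H2BK and HIST1H1C have table lengths of 381 and 642 bases without sequence after the stop codon, whereas A2780 lengths come from the other build.

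In CPM, the coding HIST1 genes of 6p summed to 107 to 145 in A2058 WT, 112 and 122 in HCT116 WT, 46.5 in AGS WT, 85.7 and 89.9 in A2780 WT and 45.4 and 46.8 in MCF10A WT. The coding genes of 1q summed to 16.7 to 26.4 in A2058 WT, 42.7 and 47.0 in HCT116 WT, 9.73 in AGS WT, 14.3 and 15.2 in A2780 WT and 15.01 and 19.55 in MCF10A WT. The 1q genes thus held 6.56 to 36.9% of the coding histone cluster counts across all libraries, with the 4 highest shares in the HCT116 8q-loss libraries. HIST3H2A and HIST3H2BB, a divergent pair on 1q, had 0 counts in all 8 AGS libraries, which allows up to 0.199 CPM in the shallowest. HIST3H2A was at 12.9 to 33.4 CPM in the 6 HCT116 libraries and 9.16 to 15.9 in the 4 A2058 WT libraries. By class, H2B genes made up 43.0% of the mean coding level in A2058 WT, 61.5% in A2780 WT and 37.2% in HCT116 WT, and H3 genes 5.08, 5.02 and 2.74%. HIST1H2BK alone held 49.2% of the level of the tested coding genes in A2780 WT, where its counted sequence is the longer one, against 24.2% in A2058 WT, so the class shares of A2780 are not comparable with those of the other lines.

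**Figure D1:**
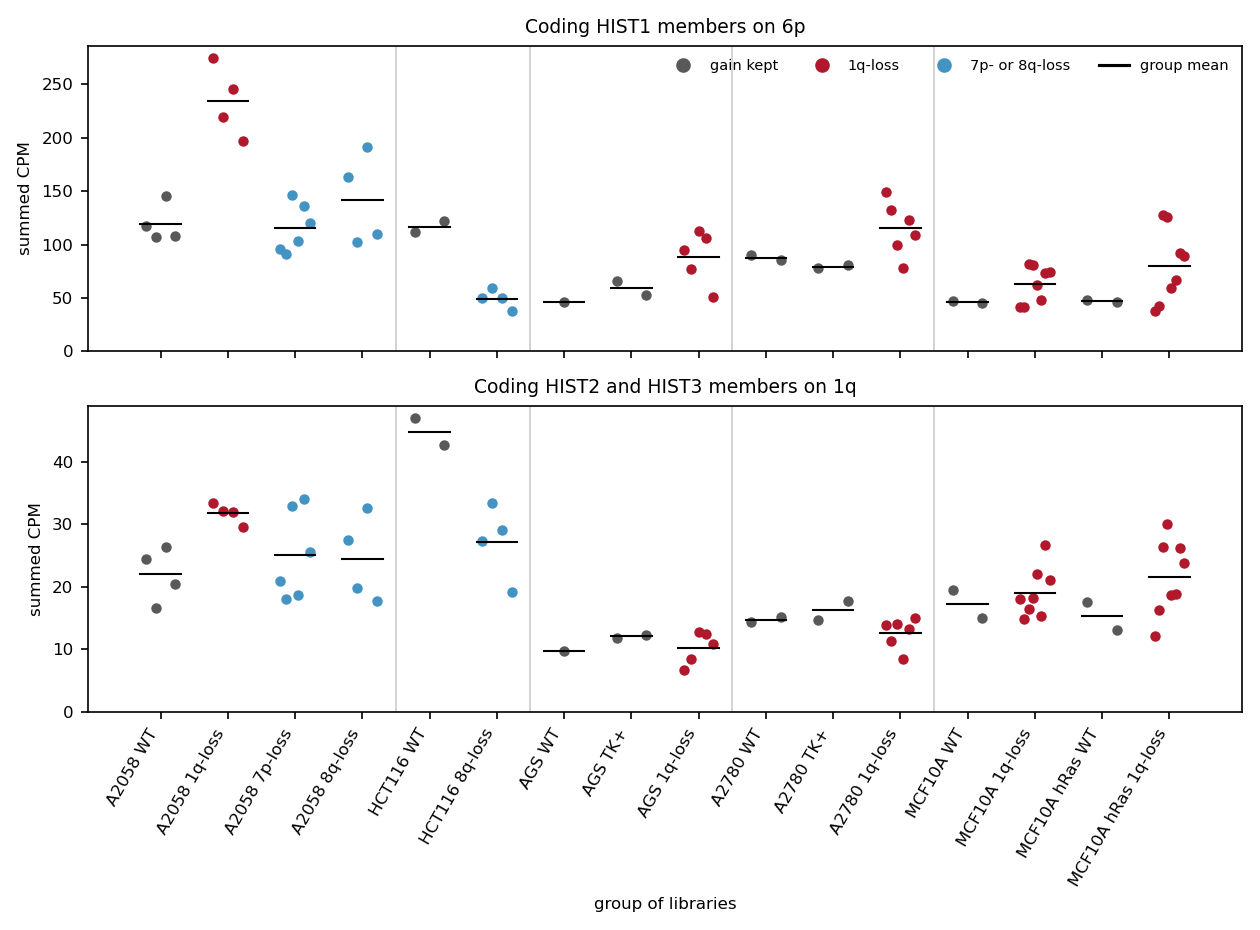
Summed CPM of the coding HIST1 genes on 6p (upper panel) and of the coding HIST2 and HIST3 genes on 1q (lower panel), with 1 point per library, 1 column per group and a line at the group mean. The A2058 1q-loss libraries, at 197 to 275 CPM on 6p, lie above all A2058 WT libraries, and the HCT116 8q-loss libraries, at 37.9 to 58.9, below both HCT116 WT libraries.

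In the A2058 1q-loss libraries, the counted RNA of 17 HIST1 genes and of 2 HIST2 genes was called higher than in WT by edgeR. DESeq2 also called 19 genes, with HIST3H2A in place of HIST1H2BF. HIST1H1C was at 10.97, 7.59, 12.1 and 8.09 CPM in WT and at 29.6, 31.3, 36.9 and 32.0 CPM in the 1q-loss libraries. The groups did not overlap, and the log2 fold change was 1.78 (SE 0.156, adjusted p = 6.9e-06, edgeR's quasi-likelihood test with Benjamini-Hochberg adjustment, as for all adjusted p-values here unless DESeq2 is named). HIST2H2BE, which lies on the lost arm, was at 5.82, 4.30, 4.27 and 4.60 CPM in WT and 10.4, 7.69, 9.26 and 9.03 CPM in the 1q-loss libraries. Again no WT library reached the lowest 1q-loss library, and the log2 fold change was 0.97 (SE 0.154, adjusted p = 0.000406).

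Of the 32 histone cluster genes tested in A2058 1q-loss against WT, 19 were called at an adjusted p under 0.05, all higher. In the same comparison 49.6% of all genes tested were called, and 25.3% were called higher. The called genes were 10 H2B genes, 3 H1 genes, 3 H4 genes, 2 H2A genes and 1 H3 gene. On 6p, 17 of 25 coding genes rose, with a median log2 fold change of 0.93 against 0.08 over all 6p genes tested, and 24 of the 25 lay above 0. HIST1H2AC, at 36.1, 20.9, 25.6 and 11.7 CPM in WT and 74.8, 54.9, 64.8 and 48.1 CPM in 1q-loss, rose by 1.40 on the log2 scale, and its divergent partner HIST1H2BC by 1.41. HIST1H2BO, an H2B gene at 0.175 to 0.557 CPM in WT, rose by 1.69, and HIST1H4K, an H4 gene whose counted sequence is identical to part of HIST1H4J, by 1.57. HIST1H2BK rose by 0.61, though its WT library 4, at 47.2 CPM, lay within the 1q-loss range of 42.3 to 59.8 CPM.

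On 1q itself, where the median log2 fold change over all genes tested was -0.46, the 5 coding histone genes tested had a median of 0.69. HIST2H2BE and HIST2H2BF, another H2B gene, rose, the latter by 1.04 (SE 0.372, adjusted p = 0.0388) from 0.418 to 1.54 CPM in WT to 1.54 to 2.41 CPM. The call of HIST2H2BF was lost in 9 of 19 alternatives, over which its value ran from 0.50 to 1.88. They include leaving out clone 1, WT replicate 1, 3 or 4 or either library of clone 1, and summing the libraries of each clone, whereas HIST2H2BE was lost in 0 of 19. HIST3H2A had a log2 fold change of 0.44 (adjusted p = 0.0596 with edgeR and 0.0361 with DESeq2), HIST3H2BB of 0.69 (adjusted p = 0.0968) and HIST2H2AC of -0.21 (adjusted p = 0.532). The 2 tested pseudogenes of 1q, HIST2H2BC and HIST2H2BD, had -0.34 and -0.47, near the median of the arm, and neither was called. The partners HIST2H2BE and HIST2H2AC thus had values of 0.97 and -0.21 beside each other, and the test of that difference was not run.

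The A2058 1q-loss libraries are those with the low melanoma markers, so no 1q-loss library with the WT marker level exists for A2058. The 19 S-phase genes (such as PCNA and the MCM helicase genes) summed to 2873 to 3219 CPM in these libraries and 2792 to 3366 CPM in WT, overlapping ranges. Of the 19, 2 rose and 5 fell, where 49.6% of all genes were called and 25.3% were called higher. With the 2 libraries of each clone summed, 12 histone cluster genes were called in place of 19, with WT replicates 1 and 2 as the only controls 10, and without clone 1 9. The shares of all genes called in these settings are not given here. HIST2H2BE, HIST1H1C and HIST1H2AC were called in every setting run.

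**Figure D2:**
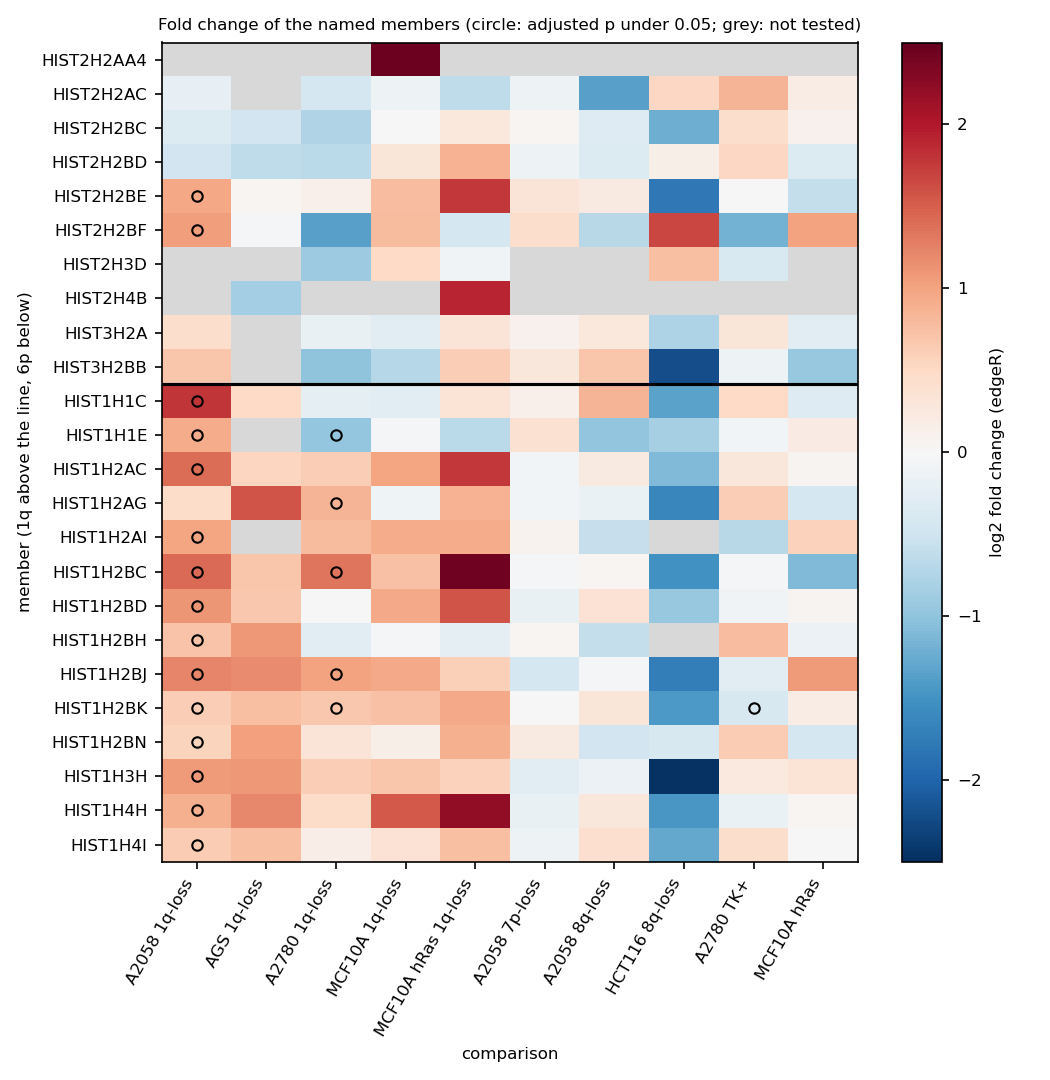
Log2 fold change (colour, edgeR) of the 24 histone cluster genes named by rule (rows, 10 of 1q above the line and 14 of 6p below) in the 10 comparisons of groups (columns), with circles at adjusted p under 0.05 and grey where a gene was not tested. Circles stand in the columns of A2058 1q-loss, where 19 of 32 tested genes were called, of A2780 1q-loss and of A2780 TK+, and are absent from the other 7 columns.

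In AGS, the 1q-loss clones had higher values for all 16 coding 6p genes tested, with a median log2 fold change of 0.78 against 0.01 over all 6p genes, but 0 of the 21 histone cluster genes tested were called. Among all genes 7.55% were called. At an unadjusted p under 0.05 there were 8, all higher, where 25.8% of all genes passed, and DESeq2 called 1, HIST1H2AG, where it called 14.9% of all genes. HIST1H2BK was at 10.7 CPM in AGS WT, 16.7 and 13.0 CPM in the TK+ clones and 23.7, 16.9, 34.3, 27.3 and 11.9 CPM in 1q-loss clones 1, 4, 6, 7 and 11. Clone 11 lay among the controls, and the log2 fold change was 0.76 (SE 0.330, adjusted p = 0.185). HIST1H2AG was at 0.180 to 0.956 CPM in the 3 controls and 0.731 to 2.40 CPM in the 5 loss clones. By a chi-square per degree of freedom over gene counts, clones 6 and 7 differed by 7.06 and clones 1 and 4 by 19.4. The other pairs of AGS loss clones differed by 37.6 to 86. The 5 clones may thus not be independent, and their lineage was not tested.

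The summed coding 6p level set clone 11 apart in the same way, at 50.5 CPM against 77.5 to 113 CPM in the other 4 clones and 46.5 to 65.7 CPM in the controls. Without clone 11, singled out here by that low sum, 3 histone cluster genes were called. The share of all genes called in that setting is not given here, so this count is not read as a result about the histone genes. Clone 11 is also the only AGS loss clone made by CO, so the clone and the method cannot be told apart. S-phase genes summed to 1766 and 1780 CPM in clones 1 and 4, to 992 to 1109 CPM in the other 3 loss clones and to 916 to 1173 CPM in the controls, so clones 6 and 7 had high 6p histone sums at the S-phase level of the controls. On 1q, HIST2H2BE was at 5.61 to 11.1 CPM in the loss clones and 6.75 to 9.69 CPM in the controls, which overlap (log2 fold change 0.05, SE 0.261). The 3 coding 1q genes tested had a median of -0.04, and all 1q genes one of -0.54. The pseudogenes HIST2H2BC and HIST2H2BD had -0.47 and -0.63.

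In A2780, 5 HIST1 genes rose with 1q loss, 1 fell, and no 1q histone gene was called. The WT and TK+ libraries together were the controls, and 6 of 34 histone cluster genes tested were called, 5 higher and 1 lower, where 11.8% of all genes were called. Of all 15044 genes tested, 895 were called higher and 885 lower, and of the 647 on 1q, 20 higher and 315 lower. HIST1H2BC was at 0.832 and 1.08 CPM in WT, 1.07 and 0.789 in TK+, and 1.45 to 3.06 with a median of 2.65 in the 6 loss libraries, with no overlap and a log2 change of 1.34 (SE 0.253, adjusted p = 0.00708). HIST1H3E, an H3 gene, rose by 1.61 (SE 0.369, adjusted p = 0.0174) from 0.131 to 0.471 CPM to 0.633 to 1.28 CPM. HIST1H2BJ, HIST1H2AG and HIST1H2BK rose by 1.01, 0.84 and 0.67, and the linker gene HIST1H1E fell by 0.97 on the log2 scale. HIST1H2BK, the most abundant, was at 48.6 and 50.6 CPM in WT, 41.7 and 34.0 in TK+ and 48.2 to 95.1 in the loss libraries, so WT and loss overlapped at the lowest loss library. HIST1H2BJ and HIST1H2AG lay above all control libraries in clones 2 and 6, but in clone 5 HIST1H2AG, at 3.66 and 3.53 CPM, lay below TK+ replicate 2 at 3.85, and HIST1H2BJ, at 1.85 and 1.18 CPM, overlapped WT at 1.09 and 1.47.

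The 26 coding 6p genes tested in A2780 split into 13 above and 13 below 0, with a median of 0.07. The 6 coding 1q genes had a median of -0.66 beside -0.45 over all 1q genes, and none was called. With no filter that median was -0.96 and with a mean CPM of at least 1 it was -0.18, on either side of the value for the arm. HIST2H3D, an H3 gene, had -0.90 (adjusted p = 0.0571), HIST3H2BB -1.01 (adjusted p = 0.0548), HIST2H2BF -1.36 (adjusted p = 0.154) and HIST2H2BE 0.12. HIST2H2BE was at 2.45 and 2.65 CPM in WT, 2.14 and 2.97 CPM in TK+ and 1.66 to 3.66 CPM in the loss libraries, which overlap. Of the 19 S-phase genes 10 fell and none rose, with a median of -0.27, where 885 of all 15044 genes tested were called lower. RNAs known to lack a poly-A tail, such as RN7SL1, summed to 1041 and 1447 CPM in WT, 684 and 881 in TK+ and 596 to 835 in the loss libraries, against 4.20 to 146 CPM in the libraries of the other lines. A2780 was counted on the GRCh37 annotation and the others on GRCh38, so line and annotation cannot be told apart here. All 4 tested genes of that list lay below 0, with a median of -0.88 and 1 called, and their part in the histone values was not tested. The 6 calls became 1 without WT replicate 1, 1 without WT replicate 2 and 1 with clones summed, and 2 without the TK+ libraries. Among the loss libraries, leaving out clone 2 or clone 6 gave 3. How many of all genes stayed called in these settings is not given here.

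**Figure D3:**
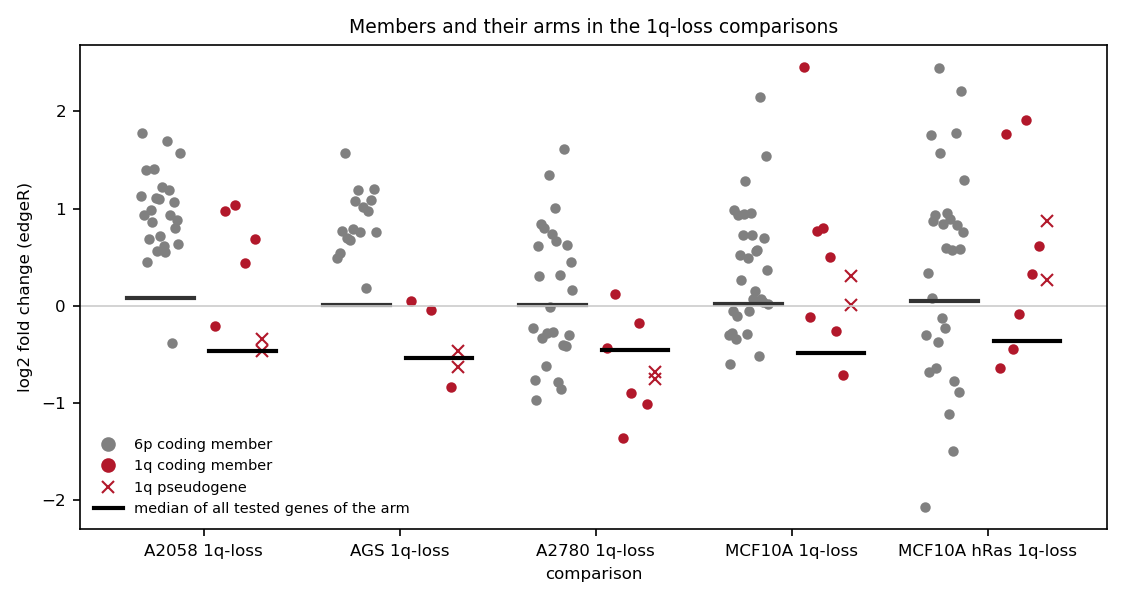
Log2 fold change (edgeR) of coding histone genes of 6p (grey), coding histone genes of 1q (red points) and 1q pseudogenes (crosses) in the 5 comparisons of 1q-loss with its controls, 1 point per gene, with lines at the median of all tested genes of each arm. Most 6p points lie above the 6p line in A2058 and AGS. The 5 coding 1q points of A2058 lie above the 1q line at -0.46, and those of A2780 on both sides of theirs at -0.45.

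In MCF10A the clones differed more than the groups. HIST1H2AC was at 5.46 and 3.43 CPM in WT, and at 2.87 and 1.92 in 1q-loss clone 1, 14.2 and 14.7 in clone 2, 6.08 and 4.81 in clone 3 and 11.4 and 14.3 in clone 4. Clones 2 and 4 lay above WT and clone 1 below it. In hRas cells the same gene was at 5.06 and 4.37 CPM in WT, 2.19 and 3.20 in clone 1, 28.1 and 33.0 in clone 2, 7.01 and 9.54 in clone 3 and 18.8 and 20.9 in clone 4. With or without hRas, clones 2 and 4 were thus high and clone 1 low. Clone 4 is the only one made by CO. The summed coding 6p genes followed the same order, from 41.2 and 41.3 CPM in clone 1 to 81.1 and 81.5 in clone 2 without hRas, and from 37.9 and 42.7 in clone 1 to 126 and 127 in clone 2 with hRas.

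Across MCF10A 1q-loss against WT, 0 of 39 histone cluster genes tested were called by edgeR and 0 by DESeq2, where 2.04% and 3.63% of all genes were called. At an unadjusted p under 0.05 there were 3, all higher (HIST1H3E, HIST1H4H and HIST1H2BK), where 11.8% of all genes passed. In hRas 1q-loss against hRas WT, 0 of 38 were called, with 0.214% of all genes. The unadjusted p was under 0.05 for 6, 4 higher and 2 lower, where 14.3% of all genes passed, and DESeq2 called 2, HIST1H2BC and HIST2H2BE, where it called 2.93% of all genes. HIST2H2BE was at 2.67 and 2.32 CPM in hRas WT, and at 3.16 and 3.85 in clone 1, 11.4 and 10.5 in clone 2, 5.07 and 5.55 in clone 3 and 13.6 and 12.4 in clone 4. All 8 loss libraries lay above both WT libraries, and edgeR gave 1.77 on the log2 scale (SE 0.625, adjusted p = 0.281). HIST1H2BC had 2.44 (SE 0.853, adjusted p = 0.277).

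The median over coding 6p genes was 0.32 in MCF10A 1q-loss and 0.58 in hRas 1q-loss, and over coding 1q genes 0.50 and 0.33, against -0.49 and -0.36 over all 1q genes. When 1 library or clone was left out, the MCF10A 1q-loss medians ran from 0.20 (without clone 4 replicate 2) to 0.50 (without WT replicate 1) on 6p and from 0.13 (without clone 3 replicate 1) to 0.75 (without clone 2) on 1q. Without clone 2, whose TP63 level stands apart in hRas cells, the hRas 6p median was 0.29 and the hRas 1q median 0.00. The libraries with high histone sums had lower S-phase sums. In hRas cells the 19 S-phase genes summed to 3907 and 3878 CPM in WT, 3702 and 3711 in clone 1, 2548 and 2616 in clone 2, 3280 and 3299 in clone 3 and 1837 and 1825 in clone 4. The interaction of 1q loss with hRas called 0 of 42 histone cluster genes, and 0% of all genes. At an unadjusted p under 0.05 there was 1 gene, where 2.22% of all genes passed, and DESeq2 called 0 where it called 0.00606% of all genes. Expression of hRas in WT cells called 0 of 31, where 1.62% of all genes were called, with 1 at an unadjusted p under 0.05 (14.2% of all genes) and 0 by DESeq2 (2.06% of all genes).

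**Figure D4:**
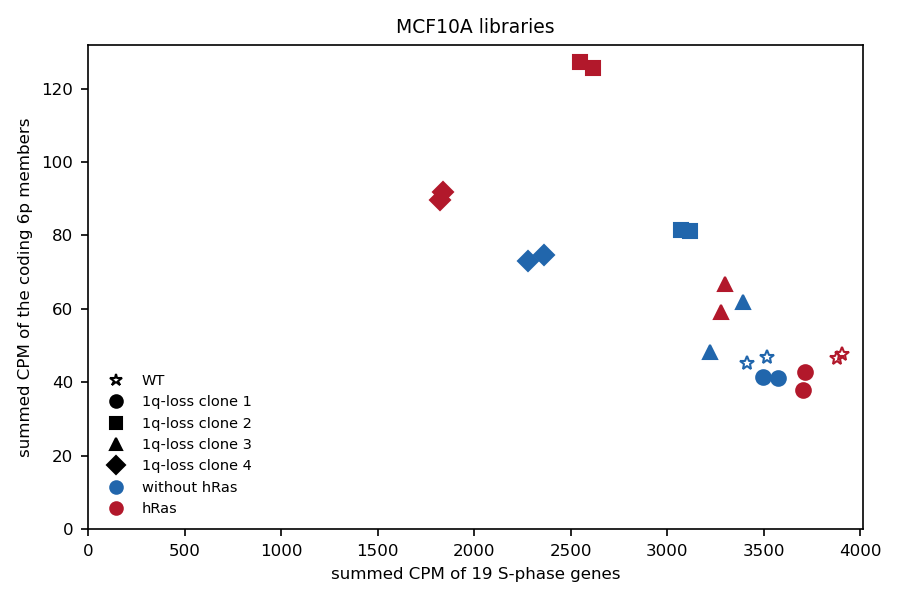
Summed CPM of the coding 6p histone genes (vertical) against the summed CPM of 19 S-phase genes (horizontal) in the 20 MCF10A libraries, 1 point per library, with the clone as the symbol and hRas as the colour. Clone 2 and clone 4 lie highest, from 73.0 to 127 CPM, at lower S-phase sums than the WT libraries.

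After loss of the 8q gain in HCT116, HIST1H2BK, HIST1H1C and HIST3H2A, the 3 highest per kilobase in WT, had lower values that missed the threshold. HIST2H2AC, at rank 5 by that level, was higher in every loss library than in both WT libraries. HIST1H2BK was at 35.6 and 35.3 CPM in WT and 13.5, 14.6, 11.5 and 12.8 CPM in the 8q-loss libraries, with no overlap and a log2 change of -1.43 (SE 0.299, adjusted p = 0.162). HIST2H2BE was at 7.84 and 7.07 CPM in WT and 2.39, 2.29, 3.01 and 0.925 CPM in 8q-loss (-1.78, SE 0.498, adjusted p = 0.447). Neither gene lies on 8q, and in both every loss library was below every WT library. HIST1H1C was at 34.8 and 27.0 CPM against 14.0, 15.1, 12.6 and 6.67 CPM, and HIST3H2A at 33.4 and 31.0 CPM against 19.4, 22.7, 20.01 and 12.9 CPM.

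In this comparison 0 of 30 histone cluster genes tested were called by edgeR, where 0.140% of all genes were called. At an unadjusted p under 0.05 there were 9, 8 lower and 1 higher, where 5.45% of all genes passed, and DESeq2 called 1, HIST1H2BK at -1.42 (DESeq2 adjusted p = 0.0055), where it called 0.747% of all genes. All 4 loss libraries lay below both WT libraries for 14 of the 30 genes, as they did for 9.65% of all genes. They lay above both for 2 of the 30, and the share of all genes above is not given here. The 22 coding 6p genes had a median log2 fold change of -1.16, with 18 below 0, against 0.06 over all 6p genes. The 6 coding 1q genes had a median of -0.12, which was -0.95 without WT replicate 2 (1 WT library left, assumed to vary like the loss group) and 0.10 without clone 2, with HIST2H2AC, the partner of HIST2H2BE, at 0.52 (adjusted p = 1.00). HIST1H2AH, the partner of HIST1H2BK, had no count in either WT library and 0.0771 to 1.20 CPM in 8q-loss. It passed the filter only through the loss group, and it is the 1 gene with a higher value among the 9. A 0 in HCT116 can stand beside up to 54 counts in the same group, as for HIST1H2BN. The 19 S-phase genes had a median of 0.13 and none was called. H2AFJ, a replication-independent H2A gene, had -2.17 (adjusted p = 0.273) and was named after its value was seen.

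**Figure D5:**
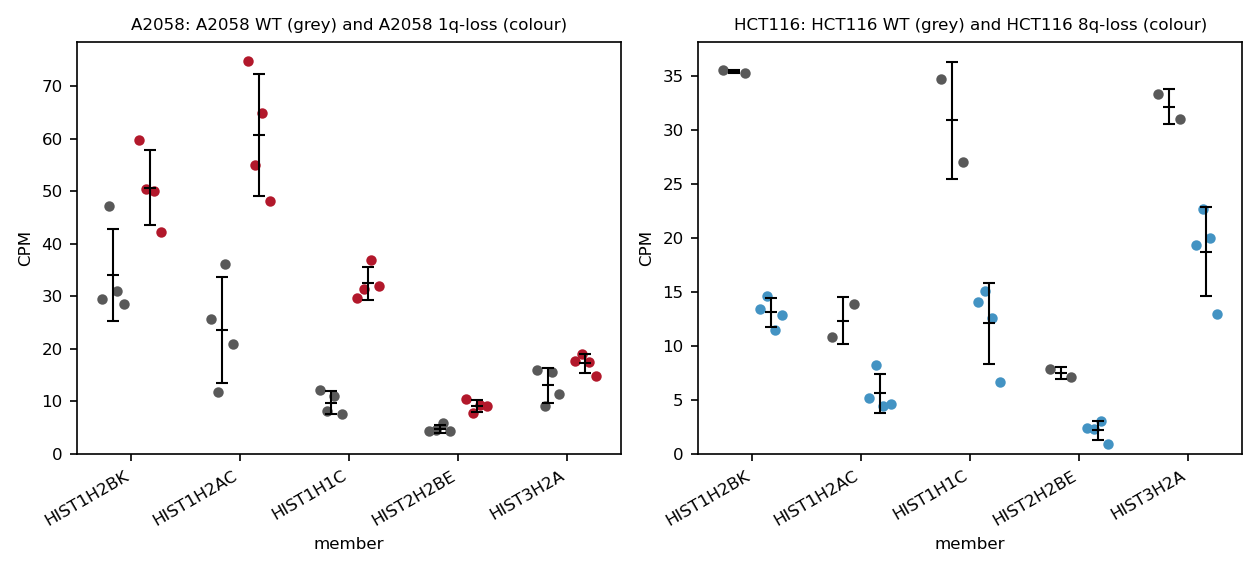
CPM of 5 histone cluster genes in A2058 WT and 1q-loss (left) and HCT116 WT and 8q-loss (right), 1 point per library with mean and SD. HIST1H2AC, HIST1H1C and HIST2H2BE do not overlap between groups in A2058, where the 1q-loss libraries are higher, and none of the 5 overlaps in HCT116, where the 8q-loss libraries are lower.

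Losses of 7p and 8q in A2058 share their WT libraries with the 1q comparison. For 7p, 0 of 29 histone cluster genes were called, where 0.908% of all genes were called. At an unadjusted p under 0.05 there was 1 (HIST1H1B, 0.60), where 13.0% of all genes passed, and DESeq2 called 0, where it called 3.43% of all genes. For 8q, 0 of 23 were called, where 2.03% of all genes were called. There were 3 at an unadjusted p under 0.05, where 13.0% of all genes passed, and DESeq2 called HIST2H2AC at -1.36 (DESeq2 adjusted p = 0.0345), where it called 4.52% of all genes. HIST2H2AC was at 1.79, 1.89, 2.46 and 1.24 CPM in WT and 0.956, 0.409, 1.07 and 0.424 CPM in 8q-loss, without overlap, while its partner HIST2H2BE had 0.22 (SE 0.246).

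In every A2058 loss clone, in all 3 loss groups, the summed histone cluster genes were higher in replicate 1 than in replicate 2. In WT they were at 183 CPM in replicate 1 and 138 in replicate 2, and at 151 in replicate 3 and 129 in replicate 4. The 8q-loss clones had 199 and 128 CPM and 234 and 133 CPM, the 1q-loss clones 316 and 257 and 286 and 232. The mitochondrial share of counts ran the other way in 6 of the 7 loss clones, and its part in this order was not tested. HIST1H2AC in 8q-loss was at 38.7 and 13.1 CPM in clone 1 and at 46.1 and 12.1 CPM in clone 2, replicate 1 first, and HIST1H2BD, an H2B gene, at 13.8 and 5.81 and at 15.6 and 4.85 CPM. HIST1H2BK showed no such order, with 33.8 and 39.3 and then 49.2 and 46.9 CPM. The median log2 fold change over coding 6p genes was 0.02 for 8q and -0.02 for 7p. With WT replicates 1 and 2 as the only controls the 7p median was -0.25, and with WT replicates 3 and 4 it was 0.26. The 8q median ran from -0.37 to 0.31 over all alternatives, and from -0.25 without WT replicate 4 to 0.21 without WT replicate 1.

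Between TK+ and WT libraries of A2780, 1 of 34 histone cluster genes tested was called, where 11.2% of all genes were called. HIST1H2BK fell by 0.40 on the log2 scale (SE 0.111, adjusted p = 0.0380), from 48.6 and 50.6 CPM to 41.7 and 34.0 CPM. DESeq2 called 0 of the 34, without WT replicate 2 edgeR called 0, and without either TK+ library 3. Each of these leaves 1 arm with a single library, which is assumed to vary like the other arm. The median over coding 6p genes was -0.13, and it ran from -0.43 without TK+ replicate 2 to 0.03 without TK+ replicate 1. This comparison and A2780 1q-loss share libraries.

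Genes that make, process and carry histones were counted in lists. In A2058 1q-loss, where 49.6% of all genes were called, 4 of 9 genes of histone transcription fell and none rose, with CDK2, the S-phase kinase, at -1.99 (adjusted p = 8.5e-07), and in A2780 1q-loss, where 11.8% of all genes were called, 4 of 9 fell, with POU2F1, the OCT1 gene on 1q, at -0.45 (adjusted p = 0.0194). Of 15 genes of histone mRNA end processing and decay, 5 rose and 2 fell in A2058 1q-loss. SLBP, which the S-phase list also holds, was at -0.11 (adjusted p = 0.147) there and fell by 0.28 in A2780 1q-loss (adjusted p = 0.0468). Replication-independent histone genes, whose mRNAs are polyadenylated, gave 3 that rose and 4 that fell among 11 in A2058 1q-loss, where H1F0 rose by 1.24 and H3F3A, on 1q, fell by 0.60 on the log2 scale. H3F3A also fell by 0.63 in MCF10A 1q-loss. Of 11 histone chaperone genes, 2 rose and 3 fell in A2058 1q-loss, with CHAF1B, a subunit of the assembly factor CAF-1, at -0.72, 4 fell in A2780 1q-loss and 1 rose in A2058 7p-loss. In HCT116 8q-loss, AGS 1q-loss and MCF10A hRas 1q-loss none of the genes of these 4 lists was called, where 0.140, 7.55 and 0.214% of all genes were.

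Some of these genes cannot be told apart by sequence. All 100-base stretches of HIST2H2AA3, HIST2H3A and HIST2H3C occur in another histone cluster gene, as do 94.9% of those of HIST2H4A, 97.1% of HIST2H4B and 96.8% of HIST2H2AA4, so their counts depend on how reads with several matches were treated, which is not given in the sources used here. HIST2H2BC and HIST2H2BD share 38.3 and 69.1% of theirs and overlap on opposite strands over 1989 bases, and whether counting used the strand is not given either. HIST2H2BE shares 2.63% of its stretches, and HIST1H2AC, HIST1H2BK, HIST1H1C and HIST3H2A share none with another histone cluster gene. HIST1H2AK lies within HIST1H2BN on the opposite strand, and HIST1H2AI shares 57.7% of its stretches with HIST1H2AJ.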

How the data were processed

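Poly-A RNA of 62 libraries was measured. The deposited tables hold raw counts per gene, made by the authors with HISAT2 2.0.5 and featureCounts 1.5.0-p3 on hg38, per the submitters' processing notes. The tables of A2780 carry GRCh37 coordinates all the same, and levels are not set across the 2 builds by test. Total counts were 15042068 to 30984036 per library.

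Each loss group was compared with the libraries of its line that keep the gain (WT, or WT and TK+ in AGS and A2780). With edgeR 4.0.16, filterByExpr removed genes with low counts (minimum count 10, total 15), TMM gave the scaling, and quasi-likelihood F-tests were run on the libraries of 1 comparison at a time. The two-sided p-values were Benjamini-Hochberg adjusted across every tested gene of a comparison and called under 0.05. A standard error is the size of the log2 change over the root of F. CPM uses total counts. Ranges without n are over libraries. R 4.3.3, DESeq2 1.42.0 and Python 3.11.15 were used, and scripts were tested on simulated data.

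Alternatives were DESeq2, other scaling factors and filters, libraries of a clone summed, a replicate block, and leaving out libraries or clones. Named genes are the 1q genes tested anywhere, the 6p genes tested in at least 8 of 10 comparisons, and the 3 largest called changes in each direction per comparison. HIST1H2AH, HIST1H1B, H2AFJ and the pairs shown as sequence were chosen after values were seen. The genes and lists were chosen with earlier results of these data known. Stem-loops were searched in GENCODE transcripts and 100-base stretches in the genes' exons. Of 126 pairs of libraries within groups, none held identical counts, and none differed by sampling noise alone.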

Additional observations from a re-analysis of the deposited data

Results flagged for a closer look

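Of 162 combinations of a gene or sum with a group of 4 to 10 libraries, 4 had a library far from the rest. Chance flags about 1 in 20 such combinations, and as they share libraries they are not independent. HIST2H2BC was at 2.94 CPM in A2058 WT replicate 4 against 5.70 to 6.26 in the other 3, and HIST1H2BK at 47.2 CPM in the same library against 28.4 to 31.0. HIST1H1E was at 3.76 CPM in MCF10A 1q-loss clone 3 replicate 1 against 0.940 to 2.20 in the other 7. HIST1H2BD was at 4.32 CPM in AGS 1q-loss clone 11 against 10.3 to 12.6 in the other 4 clones.

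The loss libraries of 2 lines were also compared for each gene or sum, giving 235 combinations of a gene or sum with a pair of comparisons. In 7 of them, every loss library lay on 1 side of the mean of its controls in 1 line and on the other side in another line. These differences were not tested, and the lines, engineering methods and, for A2780, annotation differ. The values are log2 ratios of group means. The summed coding 1q genes were at 0.53 in A2058 1q-loss and -0.30 in A2780 1q-loss. HIST2H2BF was at 1.01 and -1.35 in these, and HIST1H1E at 0.89 and -0.95. Between A2058 8q-loss and HCT116 8q-loss, HIST2H2AC was at -1.36 and 0.54, HIST2H2BF at -0.69 and 1.49, HIST3H2BB at 0.70 and -2.23, and HIST1H4I at 0.43 and -1.32. HIST2H2BF had 0 and 10 counts in HCT116 WT and 11, 43, 7 and 10 in 8q-loss, and the CPM ranges overlapped. HIST3H2BB had 47 and 10 counts in HCT116 WT and 11, 7, 6 and 0 in 8q-loss. Both HCT116 ratios thus rest on few counts.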

How the results depend on the processing

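Direction held in every alternative run for the 26 called changes (491 values), none reversed, but 137 fell short of the threshold. HIST1H1C, HIST1H2AC, HIST1H2BC, HIST1H2BD, HIST1H2BJ, HIST1H2BO and HIST2H2BE in A2058 1q-loss stayed called in every alternative run. The 19 calls in A2058 1q-loss became 12 with clones summed and 10 with WT replicates 1 and 2 only, and 9 to 19 when 1 library or clone was left out. DESeq2 called 1 gene in A2058 8q-loss, HCT116 8q-loss and AGS 1q-loss each, 2 in MCF10A hRas 1q-loss and 0 for A2780 TK+. Without a filter there were 2 in HCT116 8q-loss, 3 in A2780 1q-loss and 4 for A2780 TK+. Leaving out 1 library or clone gave 0 to 3 in AGS (3 without clone 11), 1 to 7 in A2780 1q-loss and 0 to 3 for A2780 TK+. The 6 calls in A2780 1q-loss became 1 with clones summed and 2 without TK+ libraries. Shares of all genes called in these alternatives are not given here, so such counts do not show a change particular to histone genes.

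Replicate numbers were not taken to pair the libraries, since over all genes correlations of same-numbered libraries ran from -0.18 to 0.56 and no comparison with 3 or more pairs had all above 0.1. In A2058, where they ran from -0.09 to 0.56, the summed histone genes were higher in replicate 1 of every loss clone. With a replicate block, 12 genes were called in A2058 1q-loss and 3 for A2780 TK+. The 38 genes with at most 22 counts in any library entered no test. Medians over coding genes of an arm moved beyond the replicate spread in 40 of 410 values.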
